A study of Mus musculus with 2 samples.

Results

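Retinoids were followed through the adult mouse vomeronasal organ (VNO) by way of 9 genes that bind, make or remove them: *Crabp1*, *Crabp2*, *Rbp4*, *Aldh1a1*, *Aldh1a2*, *Aldh1a3*, *Aldh1a7*, *Cyp26b1* and *Dhrs3*. The genes were chosen by name, as known binding proteins and enzymes, at a time when earlier results of these data were known. All 9 were found among the 32285 genes of the count table, of which 21823 were seen in at least 3 cells. The VNO is a tube beside the nasal septum in which vomeronasal sensory neurons (VSNs) lie under a layer of sustentacular (supporting) cells, with progenitors at the margins. The study took whole VNO of wild-type C57BL/6J males at postnatal day 60 and sequenced 2 droplet-based single-cell libraries, with 5 mice in total, to learn how progenitors choose between the apical VSNs, which carry V1R receptors, and the basal VSNs, which carry V2R receptors. All cells therefore share 1 genotype, sex, age and condition, and each comparison is between kinds of cells within the same libraries. No source at hand says how the mice were divided between the libraries, and p-values measure the spread between 2 libraries, which may be technical.

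Retinol, the form of vitamin A carried in blood by the protein that *Rbp4* encodes, is oxidized to retinal by retinol dehydrogenases and then to retinoic acid by the retinal dehydrogenases of the Aldh1a family. The protein of *Dhrs3* runs the first step in reverse, from retinal to retinol, and that of *Cyp26b1* oxidizes retinoic acid for removal. Inside a cell, retinoic acid is held by the cellular binding proteins of *Crabp1* and *Crabp2*, of which the *Crabp2* product is known to hand it to nuclear receptors and the *Crabp1* product to keep it in the cytoplasm and bring it to its breakdown. Because one cell can make retinoic acid and another can receive it, the cells that hold each transcript were followed here as makers and binders.

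Library 1 held 12814 barcodes and 108005626 unique molecular identifiers (UMIs, 1 for each captured mRNA molecule), and library 2 held 11270 barcodes and 95442231 UMIs. After the filter of the study, 5694 and 4897 cells were left, with medians of 6668 and 6649 UMIs. Clusters were named from marker genes into 22 classes, each called after the cell type it resembles ("-like"), and the 9 genes were kept out of the variable genes that formed the clusters. Levels are CPM, the UMIs of a gene relative to all UMIs of the class in 1 library, on the usual CPM scale. The deepest classes were gland-like (median 18512 UMIs) and mature basal VSN-like cells (17162), and the shallowest were ciliated-like (1089.5) and neutrophil-like cells (1592.5), which limits what a share of cells with a UMI can show. As a rough measure of RNA from outside the cell, T cell-like cells (median 2992 UMIs) held *Crabp1* at 16 and 16.3 CPM in libraries 1 and 2 and in 4.73% of cells. They had no UMI of *Crabp2*, *Rbp4*, *Aldh1a2*, *Aldh1a3* or *Aldh1a7* in 275 cells, which allows up to 3.45 CPM. Deeper classes could stand lower, such as basal epithelial-like cells at 3.77 and 2.40 CPM of *Crabp1*, so the T cell-like level is not a floor for them. The libraries shared 33 barcode sequences, 3 of them among kept cells. Some clusters whose markers were mixed stayed unnamed, among them a deep *Vmn1r* cluster with 13.5% of all *Crabp1* UMIs in kept cells and a *Myh11* cluster of which 98.6% came from library 1. Markers of other types were raised in some named clusters too. The ciliated-like cluster, with 5 of 5 ciliated markers raised, also had 4 of 5 progenitor, 4 of 6 sustentacular and 3 of 6 non-sensory epithelial markers raised. The non-sensory epithelial-like cluster also had 4 of 4 basal epithelial markers raised.

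On the mm10 build, *Crabp1* (chr9:54764748-54773110, plus strand) and *Aldh1a2* (chr9:71215789-71296243, plus) lie on chromosome 9. *Rbp4* (chr19:38116629-38125281, minus), *Aldh1a1* (chr19:20492715-20643465, plus) and *Aldh1a7* (chr19:20692953-20727562, minus) lie on chromosome 19. *Crabp2* lies at chr3:87948666-87953376 (plus), *Aldh1a3* at chr7:66390890-66427517 (minus), *Cyp26b1* at chr6:84571414-84593908 (minus) and *Dhrs3* at chr4:144892827-144928209 (plus). All are protein-coding, and the 3′ libraries count reads near the end of each transcript, so levels are compared between cells and not between genes.

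Promoter sequences are shown for 4 of the genes whose levels are described below: *Aldh1a1* and *Aldh1a7*, neighbours on chromosome 19 that were highest in the same cell classes, *Aldh1a2*, whose cells were others, and *Crabp1*, the most abundant of the 9. Each line gives the 250 bases before a RefSeq transcript start (mouse GRCm38.p6), 5′ to 3′ on the gene's strand. For *Aldh1a1* (chr19:20601718-20601967, plus strand) and *Aldh1a7* (chr19:20727557-20727806, minus strand), capitals mark the longest run that both share. For *Aldh1a2* (chr9:71215539-71215788, plus strand), capitals mark ATGCAAAT, the octamer known as a POU factor motif. For *Crabp1* (chr9:54764498-54764747, plus strand), capitals mark GGGCGG, the GC box, on either strand.
Aldh1a1: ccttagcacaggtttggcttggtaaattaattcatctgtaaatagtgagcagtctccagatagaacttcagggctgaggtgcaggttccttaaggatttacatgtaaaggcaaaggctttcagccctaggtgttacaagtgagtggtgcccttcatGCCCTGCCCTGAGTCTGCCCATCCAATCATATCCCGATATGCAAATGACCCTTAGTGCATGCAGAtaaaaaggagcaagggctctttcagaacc
Aldh1a7: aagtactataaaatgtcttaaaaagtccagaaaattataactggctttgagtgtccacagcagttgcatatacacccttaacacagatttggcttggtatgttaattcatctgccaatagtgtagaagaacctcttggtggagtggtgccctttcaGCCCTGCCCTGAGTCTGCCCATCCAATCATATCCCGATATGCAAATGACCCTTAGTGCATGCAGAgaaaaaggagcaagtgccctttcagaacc
Aldh1a2: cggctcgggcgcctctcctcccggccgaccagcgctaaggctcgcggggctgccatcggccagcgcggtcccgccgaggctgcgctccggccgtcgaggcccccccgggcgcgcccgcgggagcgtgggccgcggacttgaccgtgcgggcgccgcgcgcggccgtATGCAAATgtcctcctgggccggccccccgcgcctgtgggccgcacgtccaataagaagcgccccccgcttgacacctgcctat
Crabp1: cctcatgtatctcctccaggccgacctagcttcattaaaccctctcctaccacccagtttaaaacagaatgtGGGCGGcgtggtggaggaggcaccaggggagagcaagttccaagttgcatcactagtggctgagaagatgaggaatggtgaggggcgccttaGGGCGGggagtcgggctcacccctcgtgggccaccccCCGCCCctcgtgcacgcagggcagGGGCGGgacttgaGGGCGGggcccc

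The run shared by *Aldh1a1* and *Aldh1a7* was 65 bases long and lay from position -94 to -30 before the start in both. The *Aldh1a1* start shown lies inside the annotated span of the gene, and the window of its other RefSeq start does not hold the run. Around it, 111 bases could be aligned, with 106 identical (95.5%). The run holds ATGCAAAT at -56 in both promoters, and *Aldh1a2* has the same letters at -84. Of the 32851 promoters of this length in the RefSeq table, 1.60% hold ATGCAAAT on either strand, a motif that was chosen after these sequences had been read. GGGCGG occurs 5 times before *Crabp1* and at least once in 32.7% of all promoters. AGGTCA and AGTTCA, hexamers of the kind that retinoic acid receptors bind, were in no printed or unprinted promoter of the 7 genes the table covers (14% and 11.8% of all promoters hold them), which says only that these letters are not in these windows.

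Along the neuron lineage, *Crabp2* marked the early and *Crabp1* the later classes. *Crabp2* was highest in progenitor-like cells, at 468 CPM in library 1 and 543 CPM in library 2, with a UMI in 94.9% of 79 cells (95% exact binomial interval 87.5 to 98.6; such intervals cover counting error only). Precursor-like cells held 164 and 186 CPM, and later precursor-like cells 1.64 and 6.5 CPM. Immature apical VSN-like cells had 1 UMI of *Crabp2* in all and immature basal VSN-like cells also 1. The gene thus had its highest levels in the classes with progenitor and precursor markers, and was near 0 in the named neuron classes. The unnamed deep *Vmn1r* cluster, in which 4 of 4 apical and 4 of 5 mature VSN markers were raised beside those of other classes, held 384 UMIs of it (16.9% of those in kept cells), at 44.8 and 38.1 CPM.

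Between progenitor-like and precursor-like cells, *Crabp2* was 1.78 higher on the log2 scale in progenitors (SE 0.22, adjusted p = 1.72e-07), and between precursor-like cells and the sum of both immature VSN classes it was 7.57 higher in precursors (SE 0.47, adjusted p = 3.83e-14). In the first of these comparisons *Crabp2* was the 1 of the 9 genes that passed the test, against 11.3% of all 17965 genes tested (7.5% higher in progenitors and 3.83% lower). In the second, 3 of the 9 passed (15.4% of all genes, 6.05% higher in precursors and 9.33% lower): *Crabp2* higher in precursors, *Crabp1* lower, and *Dhrs3* lower, the latter on 0 UMIs in precursors against 17 in immature VSNs, at least 1.34-fold. The *Dhrs3* call was lost with DESeq2, in a fit of only the classes compared, at a mitochondrial limit of 10% and in thinned cells.

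*Crabp1* followed the opposite course. Its levels in libraries 1 and 2 were 148 and 91.6 CPM in precursor-like cells, 1975 and 1751 CPM in later precursor-like cells and 4208 and 3017 CPM in immature apical VSN-like cells. They were 583 and 567 CPM in immature basal VSN-like cells. In the named mature classes they fell to 53.1 and 18.8 CPM on the apical side and 6.29 and 13.5 CPM on the basal side. The basal values were below those in T cell-like cells (16 and 16.3 CPM) and above those in basal epithelial-like cells (3.77 and 2.40 CPM). The unnamed deep *Vmn1r* cluster, which held *Crabp1* too, is not among these classes. Shares of cells followed the same order, with a UMI in 93.6% of later precursors, 93.9% of immature apical, 50.6% of immature basal, 16.3% of mature apical and 8.26% of mature basal cells. With every cell thinned to 2000 UMIs these shares were 79.9%, 83.9%, 35.0%, 4.38% and 0.917%, and 4.13% in T cell-like cells.

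**Figure D1:**
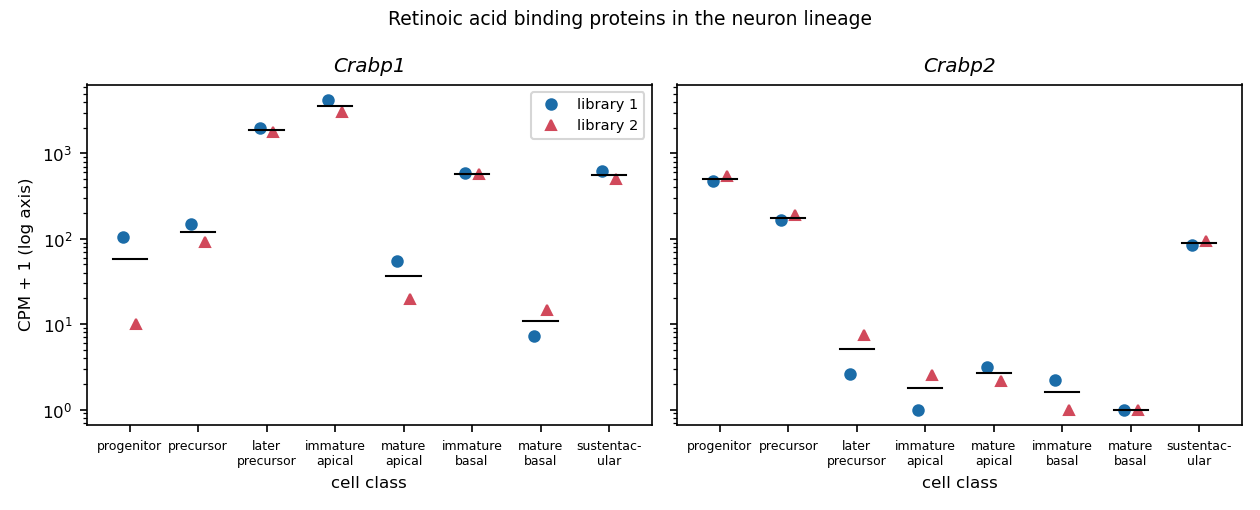
*Crabp1* (left) and *Crabp2* (right) in the classes of the neuron lineage and in sustentacular-like cells, as CPM plus 1 on a log axis. Circles are library 1, triangles library 2 and black lines the mean of both. *Crabp2* is at 468 and 543 CPM in progenitors and near 0 in the named neuron classes, and *Crabp1* peaks in immature apical VSNs at 4208 and 3017 CPM.

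*Crabp1* differed between the immature classes of the branches, whose clusters also differed in maturation markers (given below). It was 2.65 higher (log2, SE 0.32, adjusted p = 1.99e-07) in immature apical than in immature basal VSN-like cells, and the levels of the branches did not overlap between libraries. It was the 1 member of the 9 that passed in this comparison, in which 3.36% of all genes did (1.76% higher in apical and 1.6% lower). It fell with maturation in both branches, being 6.37 higher (SE 0.38, adjusted p = 2.09e-16) in immature than in mature apical cells and 5.73 higher (SE 0.49, adjusted p = 6.66e-12) in immature than in mature basal cells. The change with maturation was not shown to differ between the branches, with an interaction of -0.64 (mature over immature, apical minus basal; SE 0.75, adjusted p = 0.988). None of the 9 genes passed the interaction test of edgeR, where 0.907% of all genes did (0.59% higher and 0.317% lower), none had an unadjusted p under 0.05 and none passed with DESeq2.

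Within each branch, *Crabp1* was highest in the earlier of its clusters. Immature apical cells formed a cluster without mature VSN markers raised within the lineage, at 5657 and 4386 CPM and with a UMI in 124 of 124 cells, and a later cluster in which 5 of 5 mature VSN markers were raised, at 751 and 907 CPM. The earlier immature basal cluster, in which 2 of 5 mature VSN markers were raised within the lineage, stood at 902 and 846 CPM. The later one, in which 4 of 5 were raised, stood at 172 and 36.3 CPM. Stage was thus not matched between the branches, and its part in their *Crabp1* difference was not tested. The values by cluster are a description, since the clusters were named after values were known.

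In mature VSNs, *Crabp1* was 2.01 higher (SE 0.57, adjusted p = 0.0200) in apical than in basal cells, the 1 member called where 8% of all genes were (4.95% higher in apical and 3.04% lower). Against all other kept cells, 5 of 5 mature VSN markers were raised in mature apical cells. In mature basal cells 3 of 5 were, beside 3 of 4 immature neuron markers. Stage was thus not matched here either, and its part was not tested. Of the 311 UMIs in mature apical cells, 54 came from 1 cell, and the libraries gave log2 differences of 2.89 and 0.45. The call was lost in a fit of only these classes (adjusted p = 0.132), at a mitochondrial limit of 10% (0.125) and in thinned cells (0.141). *Cyp26b1*, which removes retinoic acid, was the other member that moved with apical maturation, where 2 of the 9 passed (24.5% of all genes, 8.21% higher in immature cells and 16.3% lower). It had 0 UMIs in immature apical cells and 5.38 and 4.99 CPM in mature apical cells, at least 2.72-fold higher in the latter (adjusted p = 0.0104). This call was lost in thinned cells. On the basal side *Crabp1* alone passed (20.8% of all genes, 8.37% higher in immature cells and 12.5% lower), and *Cyp26b1* had 0 UMIs in immature and 5.24 and 2.25 CPM in mature cells (adjusted p = 0.0685).

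*Crabp1* in progenitor-like cells rested on 1 library. It had 104 UMIs (103 CPM) in library 1 and 4 UMIs (8.90 CPM) in library 2, and 49 of the 104 came from 1 cell. Progenitor-like cells with at least 5 UMIs of the fibroblast markers *Dcn*, *Col1a1*, *Col1a2*, *Pdgfra* and *Lum*, a limit set after the values were seen, were 4 in library 1 and 0 in library 2, and these 4 held 55 of the 104 UMIs. Without them library 1 had 56.5 CPM. Within the lineage, 5 of 5 fibroblast and 3 of 6 sustentacular markers were raised in this class, and their part in its *Crabp1* was not tested. Progenitors and precursors were not shown to differ in *Crabp1* (log2 difference -0.56, SE 0.46, adjusted p = 0.562).

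Sustentacular-like cells held transcripts of both binding proteins. *Crabp1* stood at 614 and 502 CPM in their 281 cells, not separated from immature basal VSNs, and *Crabp2* at 83.8 and 94.1 CPM. A UMI of either gene was found in 94.7% of these cells (95% interval 91.3 to 97.0), and of both in 129 cells (45.9%). Against mature VSNs, 5 of the 9 genes passed the test (49.1% of all genes, 24% higher in sustentacular-like cells and 25.1% lower). These were *Crabp1* (4.20 higher, SE 0.34), *Crabp2* (5.96 higher, SE 0.30), *Aldh1a1* (5.00 higher, SE 0.72) and *Aldh1a2* (2.97 higher, SE 0.92) in sustentacular-like cells, and *Cyp26b1* in neurons. *Cyp26b1* had 0 UMIs there against 49 in mature VSNs, at least 5.82-fold lower (adjusted p = 0.000896). The levels of the enzymes were low, with 8.77 and 15.3 CPM of *Aldh1a1* and 1.64 and 4.12 CPM of *Aldh1a2* in sustentacular-like cells, and the calls of *Aldh1a2* and *Cyp26b1* were lost in thinned cells.

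The other epithelia held little *Crabp1* and more of *Aldh1a3* and *Dhrs3*. Basal epithelial-like cells joined a *Trp63* and *Krt14* cluster of 1041 cells and a *Krt4* and *Krt13* cluster of 223 cells. They had *Crabp1* at 3.77 and 2.40 CPM, below T cell-like cells and below sustentacular-like cells (log2 difference -7.07, SE 0.44, adjusted p = 3.48e-16). Their *Crabp2* was 33.0 and 23.6 CPM, also lower (log2 difference -1.26, SE 0.20, adjusted p = 4.62e-06). *Aldh1a3*, the retinal dehydrogenase known from the nasal placode and nasal epithelium, stood at 24.3 and 25.8 CPM in basal epithelial-like and at 1.10 and 0.588 CPM in sustentacular-like cells (5.11 higher, SE 0.70, adjusted p = 1.82e-07). *Dhrs3* stood at 62.7 and 69.9 CPM against 2.74 and 2.94 CPM (4.87 higher, SE 0.31, adjusted p = 9.52e-16).

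In that comparison 3 of the 9 genes were higher in basal epithelial-like cells (*Aldh1a3*, *Dhrs3* and *Cyp26b1*), 4 were lower (*Crabp1*, *Crabp2*, *Aldh1a1* and *Aldh1a2*), and 30.6% of all genes passed (15.9% higher and 14.7% lower). *Cyp26b1* had 17 UMIs against 0, at least 1.80-fold higher, a call lost at a mitochondrial limit of 10% and in thinned cells. The calls of *Aldh1a1* and *Aldh1a2* were lost in thinned cells, and that of *Aldh1a2* also with DESeq2. Gland-like cells differed from sustentacular-like cells in 6 of the 9 genes (29.9% of all genes, 15.1% higher in gland-like cells and 14.8% lower), with *Crabp1* and *Crabp2* lower (log2 differences -6.02 and -6.16, SE 0.43 and 0.39), *Aldh1a1* and *Aldh1a2* also lower, and *Aldh1a3* and *Dhrs3* 3.63 and 2.87 higher (SE 0.86 and 0.40). *Crabp1* was at 3.17 and 4.08 CPM there, and the calls of the 4 enzymes were lost in thinned cells, that of *Aldh1a2* also with DESeq2 (adjusted p = 0.439). Fitted differences to gland-like cells depart from the ratios of their CPM, since the fit scales libraries by TMM.

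Of the 22 classes, *Aldh1a3* was highest in the non-sensory epithelial-like cells, the lining opposite the sensory side, at 50.2 and 41.0 CPM and in 24.3% of 823 cells. Basal epithelial-like cells came next at 24.3 and 25.8 CPM, and the *Krt4* and *Krt13* cluster within them stood at 45.2 and 52.5 CPM. A cluster of 71 dividing keratin cells, which was left unnamed and in which 21.1% of cells were called doublets, held 52.8 and 70.1 CPM. The monocyte-like value of 43.6 CPM in library 1 was 16 UMIs of 1 cell, and library 2 had none. Together the non-sensory and basal epithelial-like cells held 424 and 277 of the 1026 UMIs of *Aldh1a3* in kept cells.

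**Figure D2:**
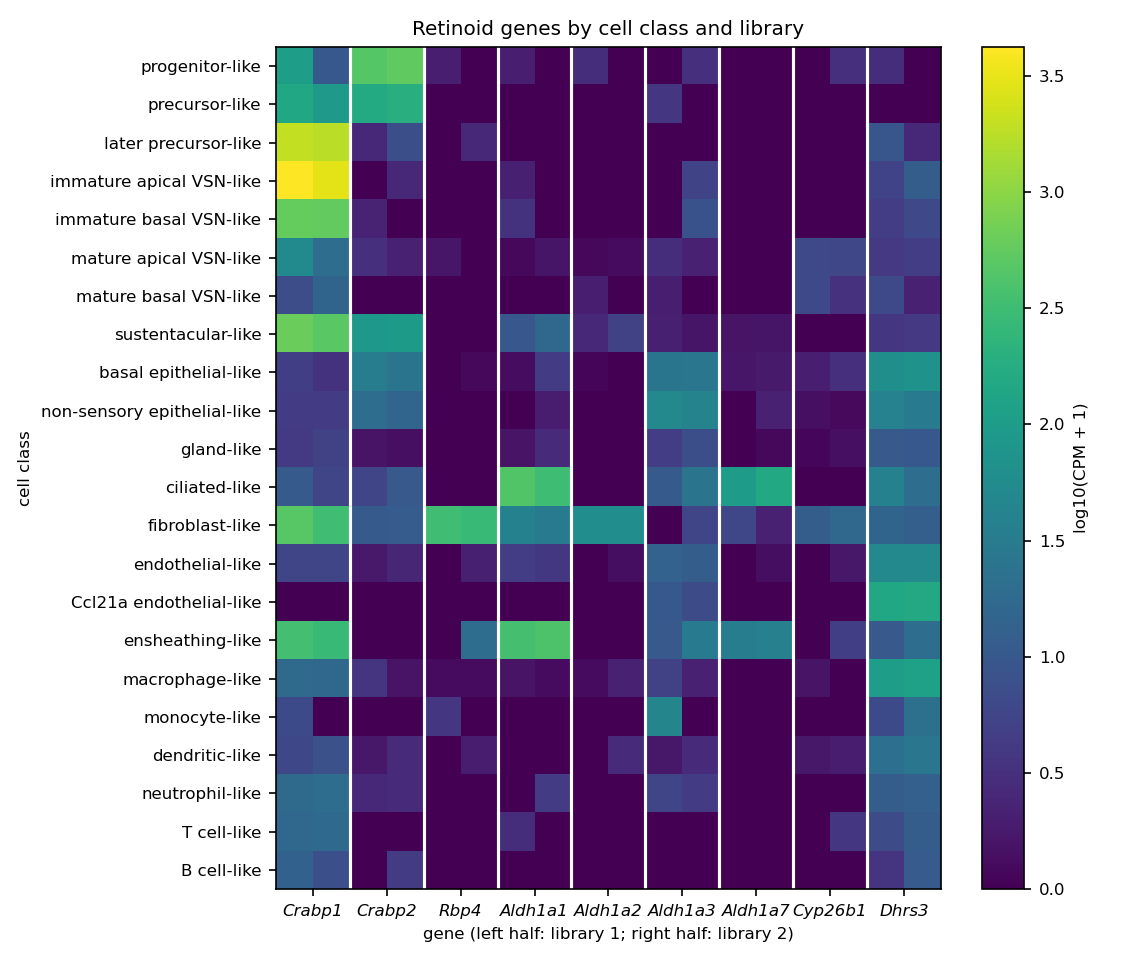
Levels of the 9 genes in 22 named cell classes, as log10 of CPM plus 1. For each gene the left column is library 1 and the right column library 2. *Rbp4* and *Aldh1a2* are bright in fibroblast-like cells, *Aldh1a1* and *Aldh1a7* in ensheathing-like and ciliated-like cells, and *Crabp1* in later precursors and immature VSNs.

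*Rbp4*, the carrier of retinol, was highest among the named classes in fibroblast-like cells. In fibroblast-like cells it stood at 322 and 290 CPM, with a UMI in 51.1% of 262 cells, and 12 of the 22 classes had no UMI of it. The next named class, ensheathing-like, had 5 UMIs from 1 cell of library 2. *Rbp4* was 10.53 higher (log2, SE 0.52, adjusted p = 1.28e-15) in fibroblast-like than in basal epithelial-like cells, which held 1 UMI, and lower in endothelial-like than in fibroblast-like cells (log2 difference -8.81, SE 0.49, adjusted p = 1.86e-14). Of its 874 UMIs in kept cells, 66.6% were in fibroblast-like cells and 16.2% in 57 cells of an unnamed stromal cluster led by *Cytl1*, *Spp1*, *Prg4* and *Ibsp*. That cluster, with 3 of 3 osteoblast and 3 of 3 chondrocyte markers raised, stood at 274 and 448 CPM, not separated from fibroblast-like cells.

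*Aldh1a2*, the main retinal dehydrogenase of embryonic mesoderm, shared the fibroblasts. Its levels there were 57.9 and 59.5 CPM, in 28.2% of cells, and its next named class, sustentacular-like, stood at 1.64 and 4.12 CPM. It was 8.15 higher (SE 0.81, adjusted p = 3.80e-09) in fibroblast-like than in basal epithelial-like cells and lower in endothelial-like cells (log2 difference -7.68, SE 0.84, adjusted p = 3.32e-08). In ensheathing-like cells it had 0 UMIs against 111, at least 9.54-fold lower (adjusted p = 0.000167). These 3 calls were lost with DESeq2 (adjusted p = 0.106, 0.168 and 0.417), which kept their direction.

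Fibroblast-like cells also held *Crabp1* at 478 and 328 CPM, in 37.8% of cells, 6.61 higher (SE 0.44, adjusted p = 2.18e-15) than basal epithelial-like cells. In all, 5 of the 9 genes were higher in fibroblast-like than in basal epithelial-like cells (*Crabp1*, *Rbp4*, *Aldh1a1*, *Aldh1a2* and *Cyp26b1*) and 3 were lower (*Crabp2*, *Aldh1a3* and *Dhrs3*), where 30% of all genes passed (13.9% higher and 16.2% lower). *Aldh1a1* stood at 37.6 and 30.4 CPM against 0.328 and 3.20 CPM, so that the libraries gave log2 differences of 4.86 and 2.90 (3.95 in the fit, SE 0.51). *Cyp26b1* was 2.61 higher (SE 0.68, adjusted p = 0.00300), a call lost with the library as a block (adjusted p = 0.0858) and in thinned cells. That of *Crabp2* (log2 difference -1.87, SE 0.34) was lost in thinned cells.

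The fibroblast-like cells and the stromal clusters left unnamed divided the genes among them. A stromal cluster of 119 cells led by *Igf2* and *Angptl7* held *Cyp26b1* at 324 and 329 CPM, in 72.3% of cells, and with 394 UMIs this was 65.9% of all *Cyp26b1* UMIs in kept cells. The same cluster had *Aldh1a2* at 101 and 165 CPM, *Aldh1a1* at 95 and 140.0 CPM and *Crabp1* at 1949 and 1598 CPM, but *Rbp4* at 1.44 and 3.89 CPM. It thus held transcripts of enzymes that make and remove retinoic acid beside those of its binding protein, with few transcripts of the retinol carrier. All 5 fibroblast and all 4 smooth muscle markers were raised there, as they also were in the *Eln* fibroblast-like cluster described next, and it was left unnamed.

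The largest fibroblast-like cluster, led by *Dpep1* and *Dcn*, had *Rbp4* at 427 and 344 CPM, *Aldh1a2* at 60.2 and 60.2 CPM, *Crabp1* at 278 and 282 CPM and no UMI of *Cyp26b1* in 168 cells, which allows 2.41 CPM. A fibroblast-like cluster led by *Eln* had *Crabp1* at 1013 and 682 CPM and *Rbp4* at 115 and 108 CPM. A further unnamed cluster of 100 cells, led by *Rgs5*, *Angptl1* and *Eln*, had *Crabp1* at 1445 and 1422 CPM in 78 cells. *Rgs5*, a pericyte marker, was found in 8 cells of that cluster and in 1 of the 78 with *Crabp1*, and *Stmn2*, a neuron marker, in 6 of the 78. These clusters are described by their values in each library, with no test.

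**Figure D3:**
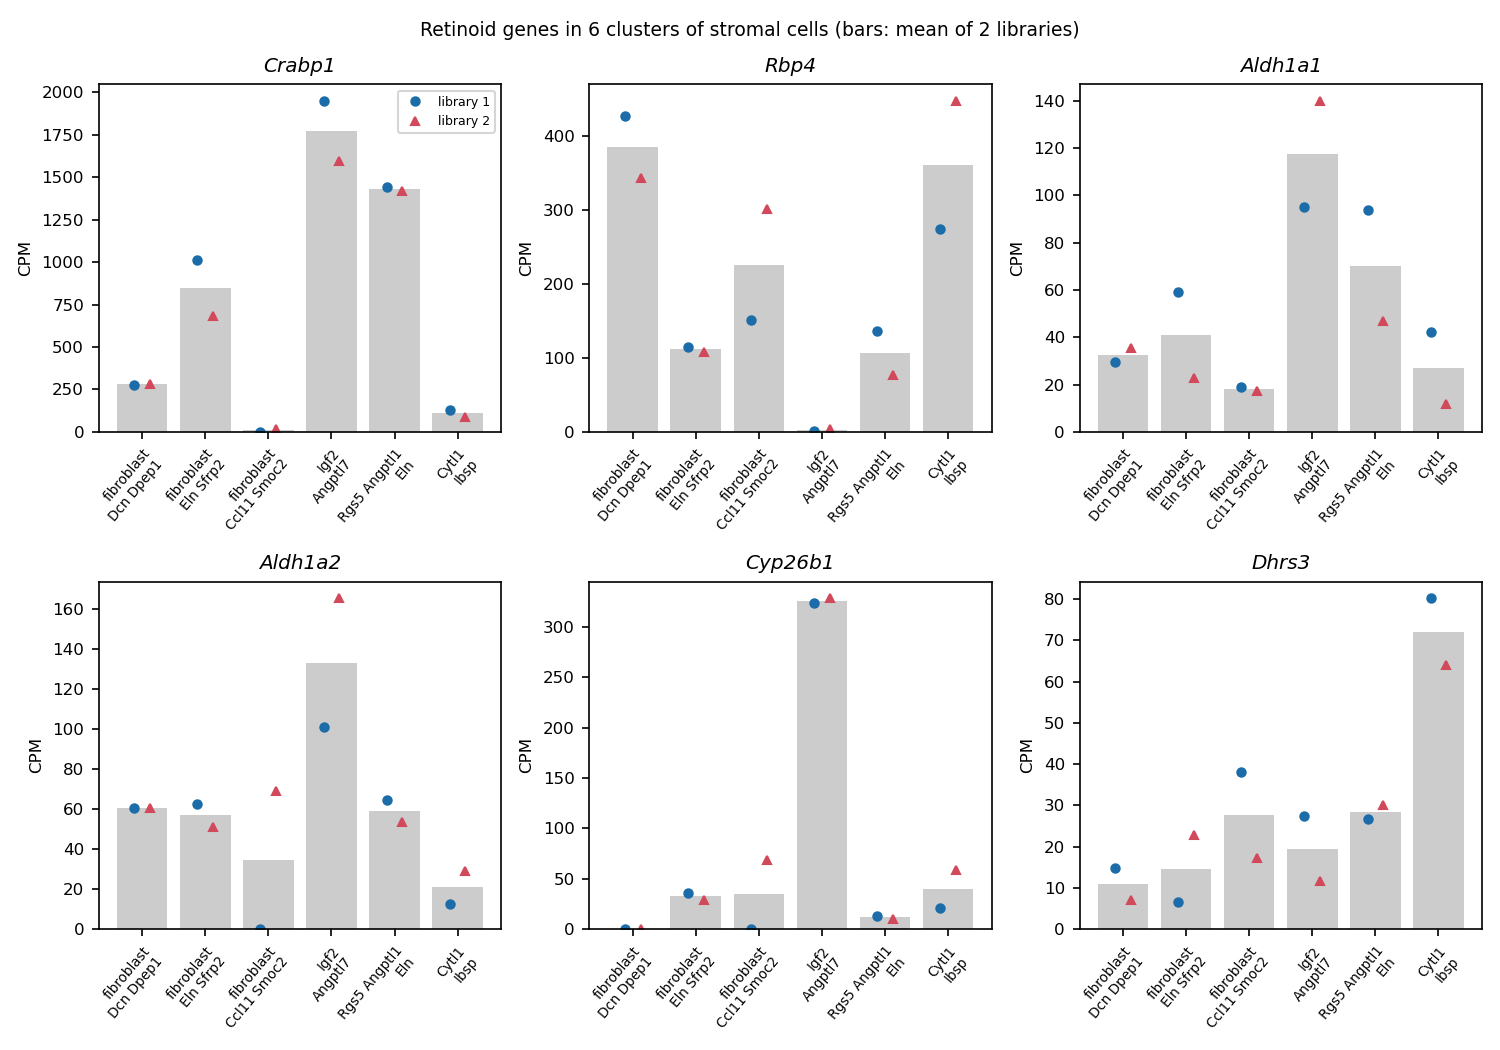
CPM of 6 genes in 6 clusters of stromal cells, each named by its leading genes, with grey bars for the mean of both libraries, circles for library 1 and triangles for library 2. *Cyp26b1* stands at 324 and 329 CPM in the *Igf2* and *Angptl7* cluster, where *Rbp4* is at 1.44 and 3.89 CPM.

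Endothelial-like cells shared little with fibroblast-like cells. Of the 9 genes, 6 were lower (*Crabp1*, *Crabp2*, *Rbp4*, *Aldh1a1*, *Aldh1a2* and *Cyp26b1*) and 2 were higher (*Aldh1a3* and *Dhrs3*), where 26.1% of all genes passed (13.5% higher and 12.6% lower). *Crabp1* at 4.74 and 4.69 CPM was below the level in T cell-like cells. *Dhrs3* stood at 49.8 and 50.5 CPM in endothelial-like and at 13.5 and 11.7 CPM in fibroblast-like cells (2.04 higher, SE 0.30, adjusted p = 5.96e-07). *Aldh1a3* stood at 12.6 and 10.8 CPM against 0 and 4.67 CPM (2.48 higher, SE 0.85, adjusted p = 0.0257), a call lost with DESeq2 and in thinned cells, as was that of *Cyp26b1* in thinned cells.

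*Dhrs3* was the most widely spread of the enzymes, over 10 CPM in both libraries in 9 of the 22 classes. It was highest in 36 *Ccl21a* endothelial-like cells, which also carry the lymphatic markers *Lyve1* and *Prox1* among their leading genes, at 142 and 153 CPM. Macrophage-like cells followed at 103 and 117 CPM, in 32.2% of 1645 cells, and their *Ccl8* and *Mrc1* cluster stood at 173 and 148 CPM. Basal epithelial-like (62.7 and 69.9 CPM), endothelial-like (49.8 and 50.5) and non-sensory epithelial-like cells (39.2 and 31.5) came after these, and each of these classes was separated from the next higher in both libraries. Mature VSNs and sustentacular-like cells were alike low (3.39 and 3.03 against 2.74 and 2.94 CPM, log2 difference -0.11, SE 0.50, adjusted p = 0.919).

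*Aldh1a1*, the other widely known retinal dehydrogenase, marked the glia of the vomeronasal nerve. Ensheathing-like cells, with all 5 of their markers raised, held it at 355 and 402 CPM, in 78.4% of 74 cells (95% interval 67.3 to 87.1). Ciliated-like cells stood at 432 and 310 CPM, so these classes were not separated, though only 21 of 152 shallow ciliated-like cells had a UMI. Fibroblast-like cells followed at 37.6 and 30.4 CPM, and *Aldh1a1* was 3.16 higher (log2, SE 0.38, adjusted p = 1.25e-07) in ensheathing-like cells. *Crabp1* was not shown to differ between these classes (346 and 280 against 478 and 328 CPM, log2 difference -0.69, SE 0.36, adjusted p = 0.25).

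Ensheathing-like cells thus combined *Aldh1a1* and *Crabp1*, with no UMI of *Crabp2* and *Aldh1a2* among the 487940 UMIs of their 74 cells. In the comparison with fibroblast-like cells 2 of the 9 genes were higher (*Aldh1a1* and *Aldh1a7*) and 3 lower (*Crabp2*, *Rbp4* and *Aldh1a2*), and 13.4% of all genes passed (5.73% higher and 7.69% lower). *Crabp2* had 0 UMIs against 19, at least 1.63-fold lower (adjusted p = 0.0330), a call lost with DESeq2, at a mitochondrial limit of 10% and in thinned cells. At the limit of 10% its log2 difference was -1.04 (SE 0.67), so the count of 0 depends on the filter. *Rbp4* was also lower (log2 difference -5.20, SE 0.52, adjusted p = 1.02e-08). The libraries gave -8.34 and -3.90, the latter through the 1 ensheathing-like cell named above.

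*Aldh1a7*, a rodent copy of *Aldh1a1* whose product is not regarded as a retinal dehydrogenase, had its highest levels in the same named classes. It stood at 99.6 and 160 CPM in ciliated-like and at 32.3 and 36.9 CPM in ensheathing-like cells. Fibroblast-like cells had 4.82 and 1.17 CPM, and the gene was 3.12 higher in ensheathing-like cells (log2, SE 0.87, adjusted p = 0.0144), a call lost with the library as a block (adjusted p = 0.156), with DESeq2 and in thinned cells. The levels of *Aldh1a1* and *Aldh1a7* went together over the 22 classes (Pearson r of log2(CPM + 10) 0.93), as a description of classes that share their libraries.

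The share of *Aldh1a7* among the UMIs of both neighbours is given as a description. *Aldh1a7* gave 55 of the 212 UMIs of both genes in ciliated-like cells (25.9%, 95% exact interval 20.2 to 32.4; 18.8% in library 1 and 34.0% in library 2). It gave 17 of 203 in ensheathing-like cells (8.37%, 4.95 to 13.1) and 0 of 138 in the *Igf2* and *Angptl7* stromal cluster (up to 2.64%). Counts were lower elsewhere, with 8 of 26 in basal epithelial-like cells (30.8%, 14.3 to 51.8), 6 of 28 in the *Eln* fibroblast-like cluster (21.4%, 8.3 to 41) and 0 of 40 in the *Dpep1* and *Dcn* cluster. Within the basal epithelial-like cells, the *Krt4* and *Krt13* cluster held 7 of the 8 *Aldh1a7* UMIs and 15 of the 18 *Aldh1a1* UMIs. The share was higher in ciliated-like than in ensheathing-like cells in each library (8.33% and 8.4% in the latter), though the intervals in library 1 overlapped (12 to 27.2 and 3.42 to 16.4), and no test was made. Where transcripts are alike, reads could be counted for the wrong copy or not at all. Of the 91-base windows of the *Aldh1a1* transcripts, 15 in each of the longer ones also occur in *Aldh1a7*, but none of them lies in the last 500 bases, which a 3′ library reads and which are 79.7% or 79.8% identical. A shorter *Aldh1a1* transcript of 825 bases had 5 such windows there.

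**Figure D4:**
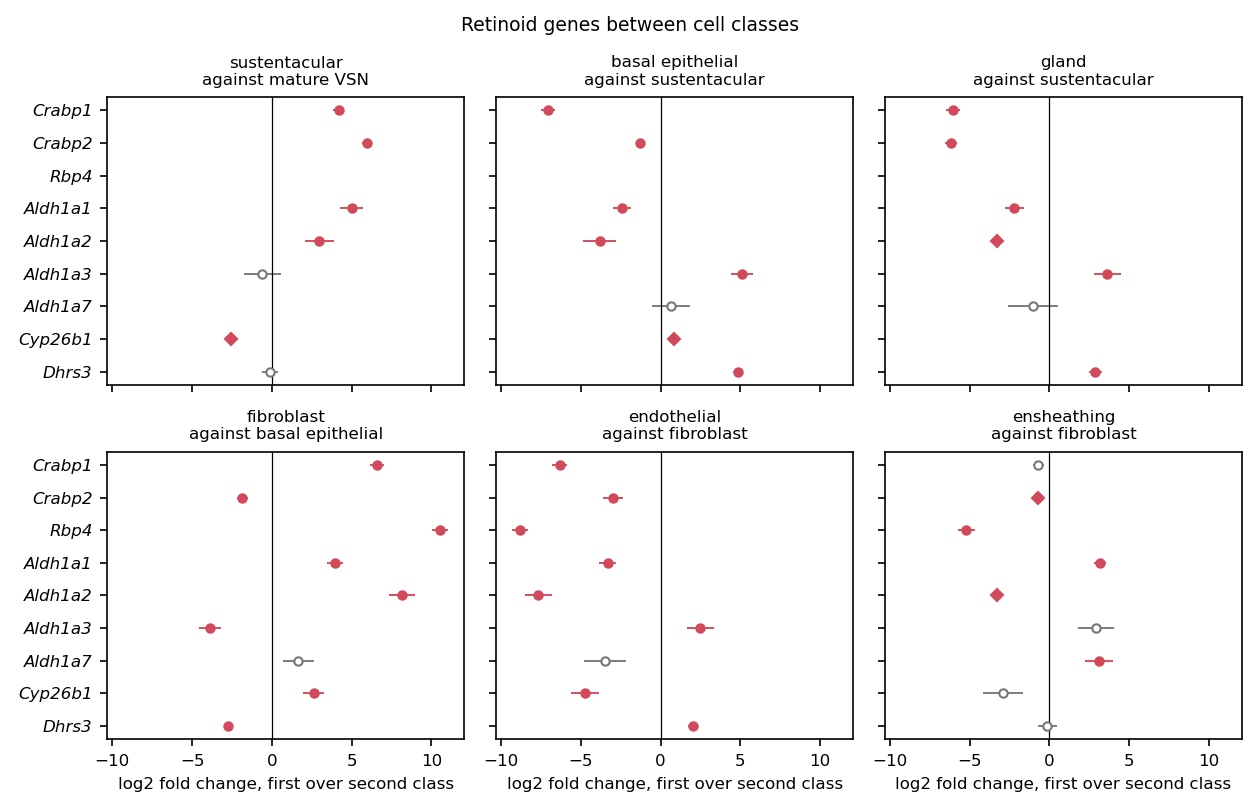
Log2 fold changes of the 9 genes in 6 comparisons of cell classes, the first class over the second, with bars for the SE. Red marks an adjusted p under 0.05 and open grey symbols the others; diamonds are lower bounds for genes with 0 UMIs in 1 class, and genes without a bound over 1 are left out. Fibroblast-like cells stand above basal epithelial-like cells in *Crabp1*, *Rbp4*, *Aldh1a1*, *Aldh1a2* and *Cyp26b1*.

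Cells were also counted rather than UMIs, as makers (cells with a UMI of an Aldh1a gene) and binders (cells with a UMI of a Crabp gene). Makers include cells with *Aldh1a7* alone, whose product is not regarded as a retinal dehydrogenase. Of all 10591 kept cells, 9.83% had a UMI of an Aldh1a gene (*Aldh1a7* included), 23.1% a UMI of *Crabp1* or *Crabp2*, and 3.81% both. Makers were rare throughout the named classes of the neuron lineage. Binders were common from progenitors to immature neurons and in the supporting cells, but not in the named mature neuron classes. The unnamed deep *Vmn1r* cluster, with apical and mature VSN markers raised beside others, differed from these. Of its 295 cells, at a median of 28086 UMIs, 92.2% had a Crabp gene and 13.2% an Aldh1a gene. Of precursor-like cells 56.4% had a Crabp gene and 1.28% an Aldh1a gene, and of immature basal VSN-like cells 50.6% and 3.16%. Of mature apical VSN-like cells it was 18.2% and 1.68%, and of mature basal VSN-like cells 8.26% and 1.83%. Of immature apical VSN-like cells 93.9% had a Crabp gene and 2.21% an Aldh1a gene, of later precursors 94.3% and 0 of 140 cells, of progenitors 94.9% and 2.53%, and of sustentacular-like cells 94.7% and 15.7%, with both in 42 cells. T cell-like cells, at a median of 2992 UMIs, had 4.73% and 0.364%. In the non-sensory and basal epithelial-like cells these shares were 14.3% and 24.8%, and 14.6% and 14.5%.

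Cells with both were most frequent in glia and stroma, where both shares were high. Whether they were more frequent than the shares alone give was not tested. Of ensheathing-like cells 82.4% had an Aldh1a gene, 66.2% a Crabp gene and 58.1% (46.1 to 69.5) both. The *Igf2* and *Angptl7* stromal cluster had 73.1%, 83.2% and 63.0% (53.7 to 71.7), and fibroblast-like cells 39.7%, 40.1% and 18.7% (14.2 to 24). These shares rise with depth, and the median depths of these groups were 5316.5, 10021 and 7244.5 UMIs, against 8901 in immature apical VSN-like cells, where makers were rare.

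**Figure D5:**
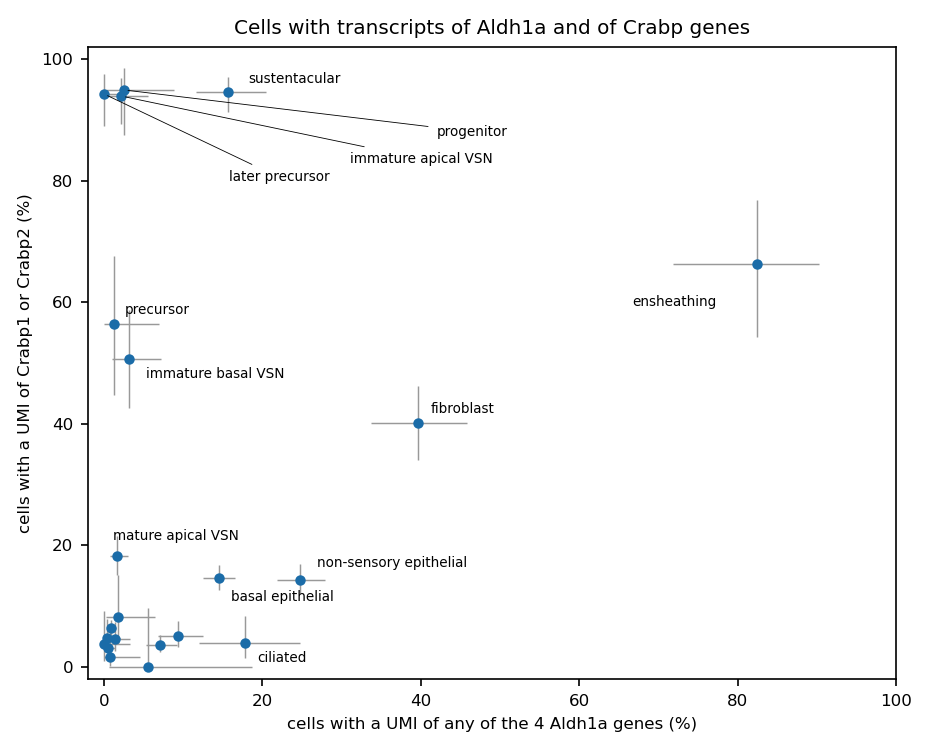
Share of cells with a UMI of any of the 4 Aldh1a genes (x axis, %) against the share with a UMI of *Crabp1* or *Crabp2* (y axis, %) in the 22 named classes, with 95% exact binomial intervals. Ensheathing-like cells stand alone at 82.4% and 66.2%, and later precursors, immature apical VSNs and progenitors at the upper left.

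The rest of the retinoid pathway was followed with 49 further genes, of which 47 had a UMI in kept cells and 19 exceeded 50 CPM in their highest class. Some genes stand under more than 1 of the roles below. Of 11 genes of uptake, carriage and storage, 4 did so, among them *Lpl*, the lipoprotein lipase, which was highest in macrophage-like cells (78.6 and 106 CPM) with fibroblast-like cells next (68.5 and 66.6 CPM). Of 18 genes that act on retinol and retinal, 7 did so. *Rdh10*, the retinol dehydrogenase of the first step, was highest in fibroblast-like cells at 147 and 211 CPM and next in gland-like cells at 26.6 and 32.2 CPM, and *Adh7* was highest in fibroblast-like cells at 232 and 218 CPM. *Aox3*, an aldehyde oxidase, was also highest there, at 187 and 137 CPM. None of the 3 breakdown genes beside *Cyp26b1* exceeded 50 CPM.

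Of 8 receptor and receptor carrier genes, 5 exceeded 50 CPM. *Fabp5*, which can carry retinoic acid to another nuclear receptor, was highest in later precursor-like cells (1988 and 2015 CPM), not separated from precursor-like cells (2142 and 1814 CPM). The receptor *Rxrg* was highest in ensheathing-like cells (101.5 and 84.8 CPM), *Rara* in monocyte-like (92.6 and 95 CPM) and *Rarg* in mature apical VSN-like cells (59.2 and 70.8 CPM). Of 9 genes known to be induced by retinoic acid, *Rarres2* (1021 and 835 CPM in fibroblast-like cells, not separated from 803 and 929 CPM in ensheathing-like cells) and *Tgm2* (1066 and 936 CPM in neutrophil-like cells) exceeded it.

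Of the 37 further genes tested, 14 were higher and 6 lower in sustentacular-like cells than in mature VSNs. Over all genes 49.1% passed (24% higher and 25.1% lower). The median log2 change was 0.47 for the 37 and 0.00 over all genes. The retinol binding gene *Rbp2* (5.84 higher, SE 0.54), the dehydrogenase *Rdh10* (2.91 higher, SE 0.33) and the receptor *Rara* (4.70 higher, SE 0.35) were higher in sustentacular-like cells. *Rarg* (-2.70, SE 0.25) and *Fabp5* (-3.04, SE 0.40) were higher in neurons. Fibroblast-like cells were higher than basal epithelial-like cells in 10 and lower in 9 (over all genes 13.9% and 16.2%; median 0.00, all genes -0.12), with *Rdh10* 3.27 higher (SE 0.22) and *Fabp5* lower (log2 difference -4.09, SE 0.39). Ensheathing-like cells were higher than fibroblast-like cells in 4 (*Dhrs4*, *Fabp5*, *Rdh5* and *Rxrg*) and lower in 9 (over all genes 5.73% and 7.69%; median -0.14, all genes 0.00).

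Within the lineage, where fewer of all genes passed too, the counts were lower. From progenitor-like to precursor-like cells 3 were higher in progenitors, among them *Dhrs4* and *Adh7*, and 2 lower, *Fabp5* and *Cyp2s1* (the latter under 50 CPM in every class and named after its value was seen; over all genes 7.5% and 3.83%; median 0.69, all genes 0.03). Between immature apical and immature basal VSNs, where *Crabp1* differed, none of the 37 passed with edgeR, 3 had an unadjusted p under 0.05 and 1 passed with DESeq2. *Rara* fell with maturation in both branches, being 3.10 higher (SE 0.54) in immature apical and 2.86 higher (SE 0.88) in immature basal than in mature cells, while *Rarg* was lower in immature cells (log2 differences -2.88 and -1.35, SE 0.30 and 0.32).

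The genes whose levels over the 22 classes were most like those of each member, among 15901 genes, were mostly genes of 1 class. *Rbp4* went with *A2m*, *Podn* and *Sfrp4* (r = 0.999 for *A2m*), *Aldh1a2* with *Alkal2*, *Ptgfr* and *Bmper* (0.997 for *Alkal2*), and *Crabp2* with *Mnd1*, *Ect2* and *Sult2b1* (0.915 for *Mnd1*). *Crabp1* went with *Pde1a*, *Lonrf2* and *Tle2* (0.845 for *Pde1a*), *Aldh1a1* with *Dzip1l*, *Cybrd1* and *Slc7a2* (0.969), and *Aldh1a7* with *Gm19935*, *Ttc12* and *Dnaic2* (0.975). *Aldh1a3* went with *Eva1c*, *Tmem40* and *Epha2* (0.856), *Cyp26b1* with *Glt8d2*, *Isl2* and *Cacng7* (0.962), and *Dhrs3* with *Ang*, *Phf11d* and *Smagp* (0.843). Among the 9, *Aldh1a2* and *Rbp4* were the most alike (0.98), and *Crabp1* and *Dhrs3* the least (-0.47). *Aldh1a2* and *Rbp4* each exceeded 10 CPM in both libraries in only 1 of the 22 classes, fibroblast-like, which sets their correlation. The unnamed clusters are not in it, and in the *Igf2* and *Angptl7* cluster *Aldh1a2* was high and *Rbp4* low. With classes that share their libraries, these are descriptions.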

How the data were processed

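Single-cell suspensions of whole VNO were cryopreserved, thawed and sequenced with the 10x 3′ chemistry (v3.1) by the authors, who aligned and counted the reads with Cell Ranger 4 on mm10 and joined both libraries. The deposited values are raw UMI counts per gene and barcode. The submitters' processing notes also name Seurat 3.2.3.

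The filter of the study was applied (200 to 9000 genes per cell, no more than 5% of UMIs from mitochondrial genes, genes seen in at least 3 cells). Cells were clustered in Seurat 5.3.0 (2000 variable genes less the 18 that belong to the members and pathway lists, 30 principal components, resolution 0.8), and the lineage and stroma again with 15 components. A marker was raised at 1.5 times its level over the other cells. Scrublet (scanpy 1.11.5) called 185 doublets, which were kept and left out in an alternative. Members and lists were chosen with earlier results of these data known, and cluster names, the fibroblast limit of 5 UMIs and the octamer motif after values or sequences had been seen. By rule, the genes named are the 9 members, the pathway genes over 50 CPM in their highest class, and for each member the 3 genes with the highest correlation of log2(CPM + 10) over the 22 classes, among genes with at least 50 UMIs.

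Counts were summed per library and class, and the 44 sums of 22 classes were fitted in 1 model by edgeR 4.0.16 (R 4.3.3; quasi-likelihood, TMM, genes with at least 10 UMIs, trended dispersions), with Benjamini-Hochberg adjustment over 17965 genes, at a threshold of 0.05. All adjusted p-values come from this test unless DESeq2 (1.42.0) is named. A class at 0 UMIs was set to a floor of 3 UMIs and the fold given as a bound, and shares have 95% exact binomial intervals. For thinned shares, each cell was drawn down to 2000 UMIs, which left out 2327 cells. Alternatives were DESeq2, other filters on genes, a fit of only the classes compared, a mitochondrial limit of 10%, resolution 1.2, thinned cells, no doublets, the library as a block and each library left out. The numbers 1 and 2 mark shared libraries, so samples are paired by the labels. Deviations of the same library correlated between classes at 0.00856 to 0.0827. Within classes the libraries differed by 1.53 to 9.10 times the sampling noise of UMIs (chi-square per degree of freedom). Differences between cells also raise this ratio, so it does not show that the libraries are independent. They were counted as separate samples, as labeled. On simulated counts, the test found 12%, 86%, 98% and 100% of genes changed by 1, 2, 3 and 4 on the log2 scale between basal epithelial-like and sustentacular-like cells (17665 genes, 3.90% of calls false), and 4%, 78%, 96% and 96% between progenitors and precursors (17747 genes, 2.14%). These counts had 1 fixed dispersion and no library effect, and only genes above a minimum of UMIs in the second class were changed. The rates therefore do not cover members with few UMIs, such as *Aldh1a3* (3 in sustentacular-like cells) and *Dhrs3* (10).

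The precision of a class is set by its cells, from 36 to 1645, and by the UMIs given beside each result. Intervals and floors cover counting error only. Promoters are those of RefSeq for GRCm38.p6, found for 7 of the 9 genes (not *Crabp2* and *Aldh1a3*). The values of 1 further pathway gene are not reported here.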

Additional observations from a re-analysis of the deposited data

Results flagged for a closer look

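The 13493 barcodes that the filters on genes and mitochondrial UMIs left out also held the 9 genes, above the limit that a count of 0 allows. *Crabp1* stood at 310 CPM there against 230 CPM in kept cells, *Crabp2* at 40.9 against 25.5, *Aldh1a1* at 14.9 against 8.70, *Aldh1a3* at 13.1 against 11.5 and *Aldh1a7* at 3.09 against 1.13. *Dhrs3* stood at 13.2 CPM against 30.1, *Rbp4* at 4.47 against 9.81, *Aldh1a2* at 2.32 against 3.95 and *Cyp26b1* at 6.06 against 6.71. These barcodes were given no class, and what they hold was not tested.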

How the results depend on the processing

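None of the 48 calls changed direction under the alternatives run, and members that were not called could, such as *Aldh1a3* between immature and mature apical VSNs (log2 difference -1.55 in library 1 and 1.37 in library 2). Of the 48 calls, 39 held and 9 were lost with DESeq2, 30 held and 18 were lost in cells thinned to 2000 UMIs, 46 held and 2 were lost with the replicate block, 44 and 4 at a mitochondrial limit of 10%, and 46 and 2 in a fit of only the classes compared. All 48 held with no filter on genes, at resolution 1.2 and without doublets, and with filterByExpr 43 held and the other 5 had no test. Without replicate 1 or replicate 2 there is no test, and each of the 48 differences kept its direction. In the thinned cells fewer of all genes passed too, and below the share over all genes in each setting stands in brackets. The members called in thinned cells were 3 for sustentacular-like cells against mature VSNs (30.6%) and 4 for basal epithelial-like against sustentacular-like (16.6%). They were 2 for gland-like against sustentacular-like (9.93%), 3 for ensheathing-like against fibroblast-like (7.28%) and 2 for progenitors against precursors (2.12%). They were 0 for mature apical against mature basal VSNs (2.58%) and 1 for immature against mature apical VSNs (11.5%). DESeq2 called 3 for ensheathing-like against fibroblast-like cells (12.7%). At a mitochondrial limit of 10% it was 2 for progenitors against precursors (15.8%), 0 for mature apical against mature basal (8.51%) and 2 for immature against mature basal VSNs (22.4%). A fit of only the classes compared called 0 for mature apical against mature basal VSNs (9.6%), and filterByExpr 1 for immature against mature apical VSNs (31.7%). The block (the pairing by library) lost *Cyp26b1* in fibroblast-like against basal epithelial-like cells (adjusted p = 0.0858) and *Aldh1a7* in ensheathing-like against fibroblast-like cells (adjusted p = 0.156), changed no other call of a member, and moved the genes that passed the interaction from 163 to 391. The highest class of *Aldh1a1* changed from ensheathing-like to ciliated-like cells without doublets, at resolution 1.2 and without replicate 2 (387, 403 and 432 CPM). DESeq2 shifted the median of all genes by 0.14 for fibroblast-like against basal epithelial-like cells, by -0.18 for mature apical against basal VSNs and by 0.17 for immature against mature apical VSNs. It moved the share of higher calls from 52.0% to 41.7% for basal epithelial-like against sustentacular-like, 46.2% to 59.2% for fibroblast-like against basal epithelial-like, 51.8% to 40.5% for endothelial-like against fibroblast-like, 42.7% to 55.1% for ensheathing-like against fibroblast-like, 66.2% to 48.2% for progenitors against precursors, 39.3% to 53.3% for precursors against immature VSNs, 61.9% to 37.6% for mature apical against basal and 33.5% to 48.5% for immature against mature apical VSNs. Causes were not tested.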
